A study of Mus musculus with 40 samples.

Results

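Saa3, Ptx3, Lcn2, Hp and Orm1 encode acute phase proteins that can be made in the lung itself as well as in the liver. They were taken by gene symbol from the annotation of the array: every probe set whose single symbol was one of the 5 was included, and each gene had 1 probe set, so 5 of the 12393 genes tested are described. Total RNA of mouse lung had been hybridised to 40 arrays in 8 groups of 5, which combined the strain (AJ or C3H), what the animals had aspirated (PBS, which is phosphate-buffered saline, or PBS with an allergen in it) and how long before the lungs were taken (6 h or 24 h). The labels call AJ hyperresponsive, and the series is about hyperresponsive airways, so the question put to these genes is how allergen moved them and whether the strains differed. Titles give the allergen as OVA and descriptions as HDM, so it is called allergen here. Every description names AJ although 20 titles carry C3H, so strain was read from the titles. The labels number the arrays of a group without saying that each number is a separate mouse, and p-values therefore measure the spread between these samples, which may be partly technical.

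In the acute phase response, cytokines of injured or inflamed tissue, above all interleukin 6 and interleukin 1, act through STAT3, NF-kB and C/EBP factors to raise the transcription of secreted proteins that bind microbes, metals, haemoglobin or lipids. The liver makes most of the circulating proteins, and epithelial cells, macrophages and fibroblasts make some of them at the inflamed site. Saa3 encodes serum amyloid A3, the amyloid A form made mainly outside the liver, which travels on lipoprotein particles and draws leukocytes. Lcn2 encodes lipocalin 2, which withholds iron from bacteria by binding their siderophores, and is made by epithelium and also carried in neutrophil granules. Ptx3 encodes the long pentraxin 3, a soluble pattern recognition protein that opsonises microbes and is made locally by myeloid and stromal cells. Hp encodes haptoglobin, which binds free haemoglobin for uptake through the receptor Cd163, and Orm1 encodes orosomucoid 1, or alpha-1-acid glycoprotein, a carrier protein that binds small molecules.

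Because Saa3 and Lcn2 were both raised in every allergen comparison while Ptx3 took another course, the 250 bases before the start of each of these 3 genes are shown, from RefSeq on build GRCm38.p6, 5′ to 3′ on the gene's strand, with any match to the motifs searched in capitals. They lie at chr7:46715677-46715926 on the minus strand (Saa3), chr3:66219637-66219886 on the plus strand (Ptx3) and chr2:32387740-32387989 on the minus strand (Lcn2), and all are promoter sequence upstream of the annotated start. Hp and Orm1 have no entry in the promoter table.
Saa3: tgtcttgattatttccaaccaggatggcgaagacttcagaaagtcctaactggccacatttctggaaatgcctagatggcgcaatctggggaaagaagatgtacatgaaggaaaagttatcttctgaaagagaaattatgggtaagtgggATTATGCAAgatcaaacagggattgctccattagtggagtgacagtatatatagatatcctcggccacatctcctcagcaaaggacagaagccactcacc
Ptx3: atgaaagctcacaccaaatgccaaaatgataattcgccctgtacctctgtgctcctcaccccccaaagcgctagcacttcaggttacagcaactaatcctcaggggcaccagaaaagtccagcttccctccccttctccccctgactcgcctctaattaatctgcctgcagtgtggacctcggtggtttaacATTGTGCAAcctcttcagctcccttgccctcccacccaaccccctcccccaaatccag
Lcn2: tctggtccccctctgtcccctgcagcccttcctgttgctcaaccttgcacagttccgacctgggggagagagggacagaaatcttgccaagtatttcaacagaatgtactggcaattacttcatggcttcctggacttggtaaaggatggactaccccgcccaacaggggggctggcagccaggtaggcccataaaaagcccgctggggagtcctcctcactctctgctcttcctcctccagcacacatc
The search, on both strands, used 5 motifs: 2 forms of the NF-kB motif, TTGCNNAAT and TTGCGCAA for C/EBP, and TTCNNNGAA for STAT, where N is any base. TTGCNNAAT was present once on the opposite strand in Saa3, as ATTATGCAA from base 100 to base 92 before the start. The same motif was present once on the opposite strand in Ptx3, as ATTGTGCAA from base 58 to base 50 before the start. None of the 5 was present in the Lcn2 window. Over 32851 promoters of the same length, TTGCNNAAT was present in 2.11%, TTGCGCAA, which matches the first motif too when a T follows, in 0.164%, TTCNNNGAA in 7.02% and the 2 NF-kB forms in 1.41% and 1.53%. A match is a description of these letters, and no binding was measured.

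Array medians ran from 63.7 to 81.3 intensity units, and correlations between arrays over the log2 levels of the 12393 genes from 0.867 to 0.985. Levels were taken as log2(intensity + 16), and differences are differences of group means on that scale with their SE, each adjusted by Benjamini-Hochberg over all 12393 genes in 1 limma model of the 40 arrays. Differences of dim genes are understated by the added 16. On PBS arrays Ptx3 read 11.5 to 27.2 intensity units and Orm1 2.20 to 45.3, close to the added 16. Of 11 alveolar epithelium markers, which define lung tissue, 10 were measured, with mean levels of 10.48 to 11.04 on every array.

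Allergen raised 3 of the 5 genes in AJ at 6 h, namely Saa3, Ptx3 and Lcn2, where 7.03% of all genes were higher (8.09% with arrays centred on their medians). At 24 h in AJ it raised Saa3, Lcn2 and Orm1, where 4.56% of all genes were higher. In C3H at 6 h it raised 4, all except Hp, where 3.93% of all genes were higher, and 3 when replicates 1 and 2 of the allergen arrays, which stood apart, were left out. In C3H at 24 h it raised Saa3 and Lcn2, where 2.1% of all genes were higher (2.37% with centring). No member was lower in any of the 4 comparisons, where 12%, 3.28%, 3.69% and 1.15% of all genes were lower in turn (8.43% in the first and 0.605% in the last with centring). The median difference over the 5 genes was 1.82, 1.14, 1.31 and 0.75 in these 4 comparisons, beside -0.07, 0.00, 0.00 and -0.04 over all genes. In every difference called, the 5 allergen arrays all lay above the 5 PBS arrays, an arrangement found in 5.62%, 4.82%, 3.1% and 2.59% of all genes. RNA came from whole lung, so fewer or more cells of a type and less or more RNA per cell cannot be told apart.

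**Figure D1:**
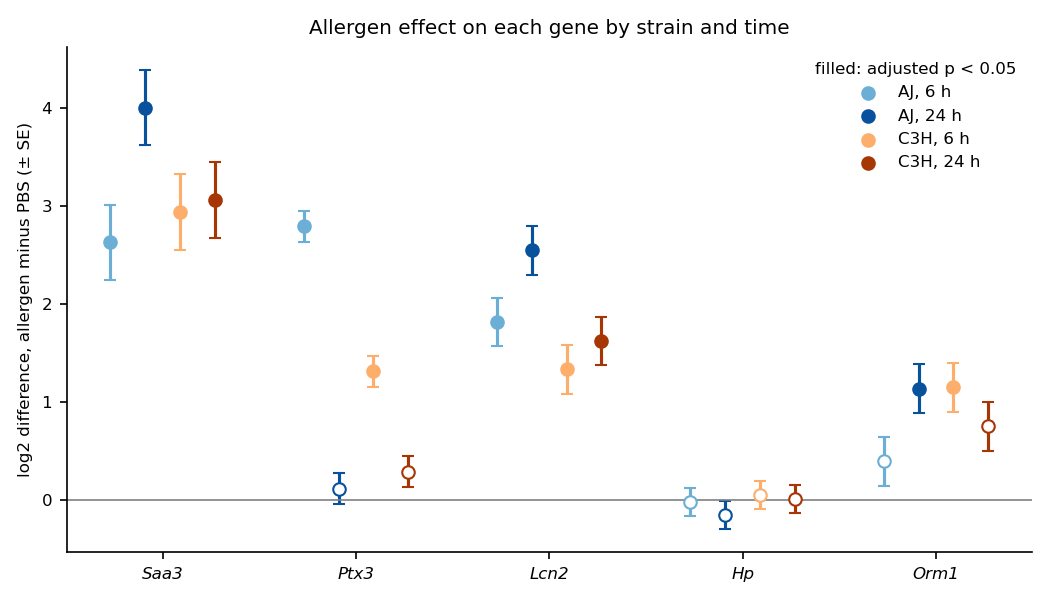
Difference between allergen and PBS group means of log2(intensity + 16) for each gene (vertical axis, points with SE bars, 5 arrays a group), coloured by strain and time, with filled points where adjusted p is under 0.05. Saa3 and Lcn2 are filled at both times in both strains, Ptx3 at 6 h alone, Orm1 in AJ at 24 h and C3H at 6 h, and Hp lies near 0 throughout.

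Saa3 had the largest allergen difference of the 5 genes in 3 of the 4 comparisons. In AJ at 6 h the PBS arrays read 69.7, 380.2, 98.6, 350.0 and 80.3 and the allergen arrays 1474, 671, 1048, 975 and 1145. Replicates 2 and 4 stood high among the PBS arrays, and no PBS array reached the lowest allergen array. The difference was 2.63 ± 0.38 (SE), 6.20-fold, with an adjusted p of 1.88e-06. In AJ at 24 h PBS arrays read 331, 82.4, 60.3, 93.2 and 108 and allergen arrays 3692, 1631, 2048, 1815 and 1609. Replicate 1 was the highest array in each of these 2 groups, which lay far apart. The difference of 4.0 ± 0.38, 16-fold (adjusted p = 9.84e-10), was rank 6 of 12393 genes among increases.

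In C3H at 6 h, Saa3 read 89.4, 107, 89.4, 138 and 238 in PBS and 1516, 2241, 804, 771 and 622 in allergen arrays. Allergen replicates 1 and 2 stood above the other 3 arrays. The difference was 2.94 ± 0.38, 7.68-fold (adjusted p = 1.06e-06), and 2.41 (adjusted p = 0.000296) without these 2 arrays. In C3H at 24 h, PBS arrays read 129, 83.0, 78.3, 96.5 and 91.2 and allergen arrays 858, 950.4, 1159, 1039.5 and 619, a difference of 3.06 ± 0.38, 8.35-fold (adjusted p = 1.47e-06). Both groups were tight, and in C3H, too, Saa3 was rank 6 of all genes among increases at either time.

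Between the strains, the Saa3 response differed by 0.31 at 6 h (C3H minus AJ, 95% interval -0.79 to 1.41, adjusted p = 0.875) and by -0.94 at 24 h (interval -2.04 to 0.16, adjusted p = 0.485), and neither passed. Among allergen arrays at 24 h all 5 C3H arrays lay below all 5 AJ arrays, as in 3.91% of all genes. That difference, -1.16 ± 0.38, had an adjusted p of 0.0571, and it passed under 4 other settings, with adjusted p of 0.0137 to 0.0488. In AJ, the allergen arrays at 24 h all lay above those at 6 h, as in 8.95% of all genes, by 0.98 ± 0.38 (adjusted p = 0.0692; 0.0165 and 0.0391 under 2 other settings). The change of the allergen effect from 6 h to 24 h in AJ, 1.37 ± 0.54, did not pass either (adjusted p = 0.147), and without the high PBS replicate 1 at 24 h it was 1.73 (adjusted p = 0.0392). In C3H the corresponding change was 0.12 (interval -0.98 to 1.22, adjusted p = 0.943).

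Lcn2, the siderophore binder, rose in the same 4 comparisons as Saa3. In AJ at 6 h the PBS arrays read 636, 1696, 835, 1006 and 502 and the allergen arrays 3043, 2995, 3418, 2793 and 3042. Replicate 2 was high among the PBS arrays, as for Saa3, while the allergen arrays were within a narrow band. The difference was 1.82 ± 0.25, 3.52-fold (adjusted p = 5.43e-07). At 24 h in AJ the PBS arrays read 1333, 626, 549, 464 and 592 and the allergen arrays 5958, 3751, 3411, 2985 and 4209. Replicate 1 was again the highest array of both groups, and the groups did not overlap. The difference was 2.55 ± 0.25, 5.85-fold (adjusted p = 1.21e-09).

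In C3H at 6 h Lcn2 read 1162, 970.4, 1578, 1506 and 1598 in PBS and 4353, 4151, 2796, 3368 and 2647 in allergen arrays, a difference of 1.33 ± 0.25, 2.52-fold (adjusted p = 0.000332). Allergen replicates 1 and 2 were the highest here too, and without them the difference was 1.12 (adjusted p = 0.0203). In C3H at 24 h PBS arrays read 772, 807, 595, 881 and 791 and allergen arrays 2817, 2414, 2970.0, 1445 and 2639. Allergen replicate 4 stood well below the other 4 arrays and still above every PBS array, and the difference was 1.62 ± 0.25, 3.08-fold (adjusted p = 4.22e-05).

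The Lcn2 response differed between the strains by -0.48 at 6 h (C3H minus AJ, interval -1.19 to 0.23, adjusted p = 0.593). At 24 h this difference was -0.92 (interval -1.63 to -0.22, adjusted p = 0.249 over all genes). Among allergen arrays at 24 h, all C3H arrays lay below all AJ arrays, as in 3.91% of all genes, by -0.72 ± 0.25. This missed the threshold (adjusted p = 0.0668, or 0.0165 with quantile normalization). PBS arrays of C3H at 24 h all lay below those at 6 h, as in 2.2% of all genes, with a difference of -0.80 ± 0.25 (adjusted p = 0.0673; 0.0212 to 0.049 under 3 other settings). The change of the allergen effect with time was 0.73 in AJ (interval 0.02 to 1.44, adjusted p = 0.258) and 0.29 in C3H (interval -0.42 to 1.0, adjusted p = 0.753).

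**Figure D2:**
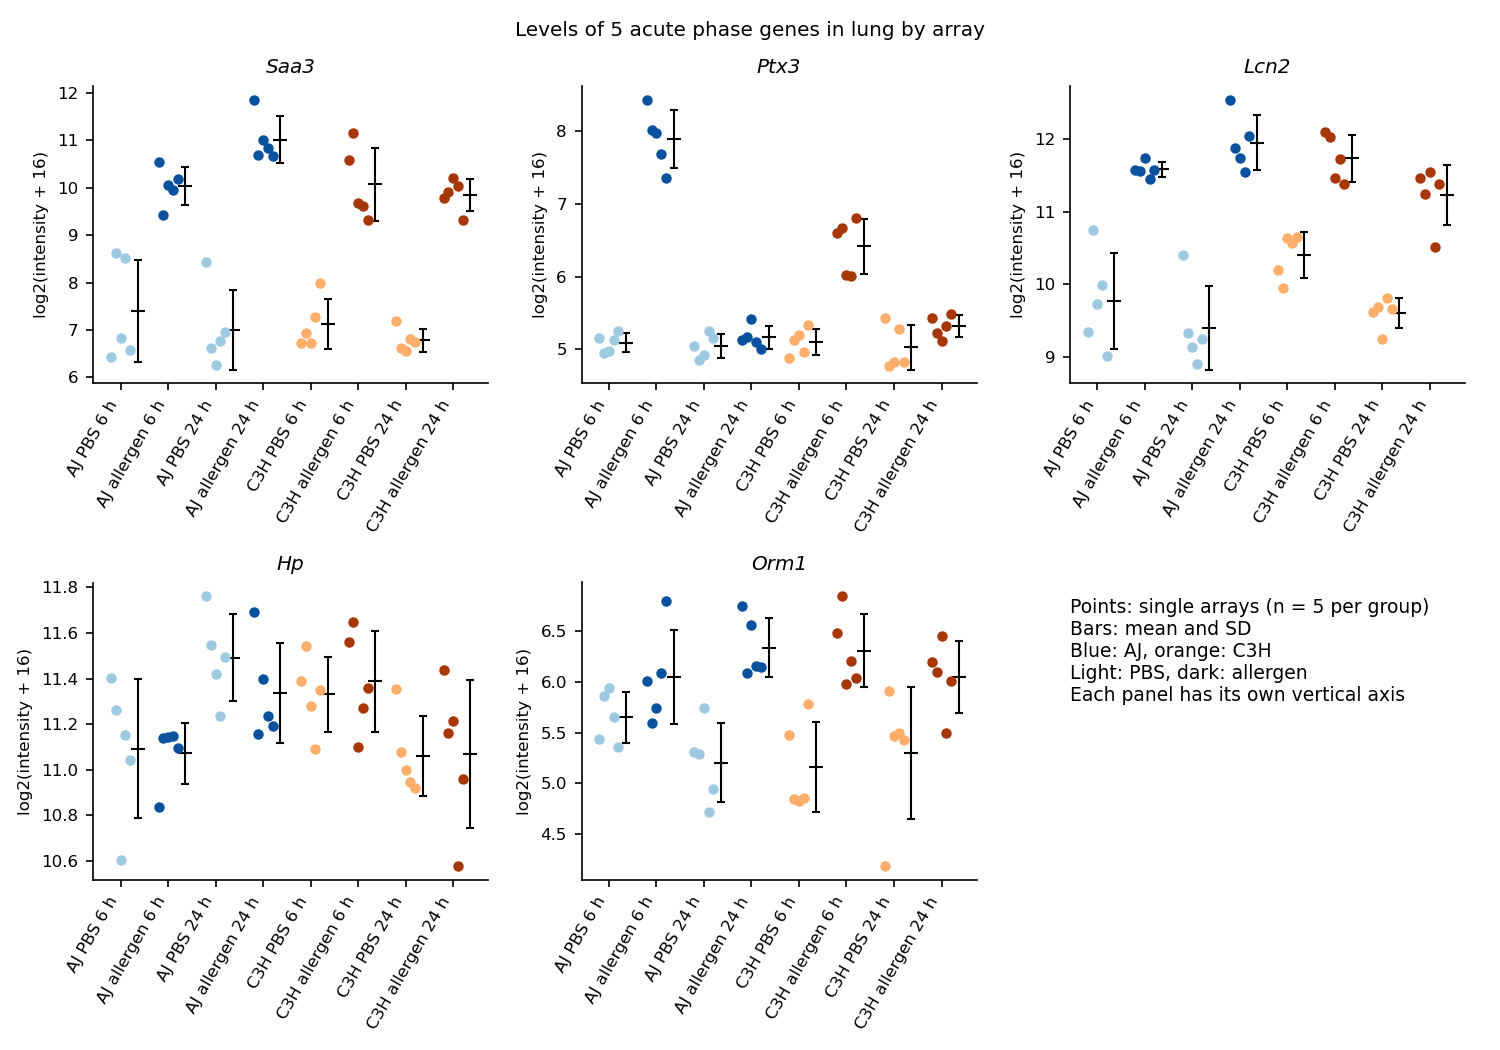
Level of each gene, log2(intensity + 16), on every array (points, 5 a group, in replicate order from left to right) with group mean and SD (black), AJ in blue and C3H in orange, PBS light and allergen dark; each panel has its own axis. Saa3 and Lcn2 are separated from PBS in every strain and time, Ptx3 stands out at 6 h and is back among the PBS levels at 24 h in AJ, and the Hp groups overlap.

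Ptx3 showed a response at 6 h that was much larger in AJ than in C3H and did not pass in either strain at 24 h. In AJ at 6 h the PBS arrays read 19.8, 14.9, 15.5, 19.0 and 22.2 and the allergen arrays 328, 242, 234, 188 and 147. The PBS readings were close to the added 16, and the lowest allergen array lay far above all of them. The difference was 2.79 ± 0.16, 6.92-fold (adjusted p = 1.15e-15), rank 28 of 12393 genes among increases. In C3H at 6 h PBS arrays read 13.4, 19.0, 20.7, 15.3 and 24.5 and allergen arrays 80.4, 85.2, 49.1, 48.1 and 95.3. These groups did not overlap either, and every C3H allergen array lay below every AJ one, as in 2.77% of all genes. The difference was 1.31 ± 0.16, 2.48-fold (adjusted p = 2.33e-07).

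At 24 h in AJ Ptx3 read 17.1, 12.8, 14.5, 22.2 and 19.7 in PBS and 19.0, 19.9, 26.8, 18.4 and 16.2 in allergen arrays, which overlapped (difference 0.12, interval -0.21 to 0.44, adjusted p = 0.794). At 24 h in C3H it read 27.2, 11.5, 12.4, 23.0 and 12.4 in PBS and 27.0, 21.4, 18.8, 24.1 and 28.9 in allergen arrays, with a difference of 0.29 (interval -0.03 to 0.61, adjusted p = 0.344). PBS replicates 1 and 4 of C3H at 24 h lay among the allergen arrays, and the other 3 below them.

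Ptx3 was the one member for which a difference of the allergen effect between strains or between times passed the test. At 6 h the effect was smaller in C3H, by -1.48 ± 0.22 (adjusted p = 9.19e-05), where 1.01% of all genes had a lower effect in C3H (1.1% with arrays centred). The effect dropped from 6 h to 24 h in AJ, by -2.68 ± 0.22 (adjusted p = 4.39e-10), where 2.1% of all genes did so (2.2% centred). In C3H it dropped by -1.03 ± 0.22 (adjusted p = 0.0202), where 0.444% did so (0.29% centred). This last call was lost when the groups compared were fitted alone (adjusted p = 0.0604), without C3H allergen replicate 1 at 6 h (-0.98, adjusted p = 0.0556) and without replicates 1 and 2 (-0.88, adjusted p = 0.101). At 24 h 0 of the 5 members had an effect that differed between strains, where 0.46% of all genes did in either direction. That count of 0 is limma's, and 1 member, Lcn2, had an unadjusted p under 0.05 there.

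Among allergen arrays Ptx3 was lower in C3H than in AJ at 6 h, by -1.47 ± 0.16 (adjusted p = 2.36e-08), the one member called there, where 3.61% of all genes were lower (5.5% centred). Centring the arrays moved the median over all genes by -0.10 in that comparison and the Ptx3 difference to -1.57. Allergen arrays at 24 h were lower than at 6 h, by -2.72 ± 0.16 in AJ (adjusted p = 2.68e-15), where 6.98% of genes were lower (9.14% centred), and by -1.10 ± 0.16 in C3H (adjusted p = 4.34e-06), where 10.6% were lower (6.89% centred). None of these comparisons among allergen arrays is independent of the effects above, since they use the same arrays. Because Ptx3 is dim in PBS, the size of its difference follows the number added before the logarithm: the AJ difference at 6 h was 3.53 with 1 added and 1.80 with 64, and the C3H difference 1.86 and 0.70, all passing.

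Orm1, the carrier protein, was dim and rose in AJ at 24 h and in C3H at 6 h. In AJ at 24 h PBS arrays read 23.7, 23.2, 37.4, 10.4 and 14.8 and allergen arrays 91.3, 52.1, 78.3, 55.2 and 54.8. The groups did not overlap, and replicates 1 and 3 were the highest allergen arrays. The difference was 1.14 ± 0.25, 2.20-fold (adjusted p = 0.00225). In C3H at 6 h PBS arrays read 28.5, 12.8, 12.5, 12.9 and 38.9 and allergen arrays 73.4, 99.1, 47.2, 57.6 and 49.6, which did not overlap. The difference was 1.15 ± 0.25, 2.22-fold (adjusted p = 0.00233), and 0.92 (adjusted p = 0.0764) without allergen replicates 1 and 2, which stood highest for Orm1 as they did for Saa3 and Lcn2.

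In AJ at 6 h Orm1 read 27.2, 42.3, 45.3, 34.2 and 25.1 in PBS and 48.3, 32.3, 37.7, 52.2 and 95.1 in allergen arrays, overlapping, with a difference of 0.40 (interval -0.11 to 0.91, adjusted p = 0.325). In C3H at 24 h it read 2.20, 44.2, 28.2, 29.1 and 27.2 in PBS and 57.3, 52.6, 71.4, 29.1 and 48.4 in allergen arrays. PBS replicate 1 lay far below the others, and allergen replicate 4 lay among the other PBS arrays. The difference was 0.75 (interval 0.24 to 1.26, adjusted p = 0.0922), and it passed without PBS replicate 2 (0.91, adjusted p = 0.0461) or without allergen replicate 4 (0.89, adjusted p = 0.0389), and with array weights (0.78, adjusted p = 0.0476). The effect did not differ between strains at 6 h past the threshold (0.76, interval 0.03 to 1.48, adjusted p = 0.334) or at 24 h (-0.38, interval -1.11 to 0.34, adjusted p = 0.698). Sizes depend on the added number here as well: in AJ at 24 h the difference was 1.64 with 1 added and 0.60 with 64. Orm1 has close paralogs, and whether its probe set also reads them was not tested; the paralog Orm2 had its own probe set, whose allergen differences of 0.03, 0.18, 0.23 and 0.20 in AJ at 6 h, AJ at 24 h, C3H at 6 h and C3H at 24 h did not pass.

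Hp, the haemoglobin binder, passed in none of the 16 comparisons. In AJ at 6 h PBS arrays read 2695, 2436, 1539.6, 2259 and 2093 and allergen arrays 1811, 2238, 2248, 2253 and 2168. In AJ at 24 h they read 3458, 2975, 2728, 2398 and 2866 and 3297, 2268, 2685, 2397 and 2323. The PBS and allergen arrays overlapped at both times. In C3H at 6 h PBS arrays read 2668, 2970.3, 2472, 2166 and 2593 and allergen arrays 3001, 3191, 2178, 2456 and 2611. In C3H at 24 h they read 2602, 2142, 2027, 1954 and 1920.0 and 2760.4, 2273, 2357, 1511 and 1975. All 40 readings stayed between 1511 and 3458, and PBS and allergen arrays overlapped again.

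The allergen differences of Hp were -0.02 (interval -0.31 to 0.27) and -0.16 (interval -0.45 to 0.13) in AJ at 6 h and 24 h, and 0.06 (interval -0.23 to 0.35) and 0.01 (interval -0.28 to 0.30) in C3H, with adjusted p of 0.955, 0.641, 0.899 and 0.977. A rise of 1 on the log2 scale lies outside each of these intervals. Among PBS arrays, C3H was below AJ at 24 h by -0.43 ± 0.14, which missed the threshold (adjusted p = 0.127; 0.0159 and 0.0213 under 2 other settings), and AJ was 0.40 ± 0.14 higher at 24 h than at 6 h (adjusted p = 0.0881). The allergen arrays of AJ at 24 h lay wholly above those at 6 h, as in 8.95% of all genes, by 0.26 ± 0.14 (adjusted p = 0.215).

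Without allergen the strains and times could not be separated for any member at the threshold. Of the 5 genes, 0 differed between C3H and AJ among PBS arrays at 6 h, where 4.45% of all genes did, and 0 at 24 h, where 1.93% did. Likewise 0 differed between 24 h and 6 h among PBS arrays in AJ, where 5.37% of all genes did, and 0 in C3H, where 3.21% did. Hp at 24 h came closest between strains, with a C3H minus AJ difference of -0.43 ± 0.14 (adjusted p = 0.127). Lcn2 at 6 h was 0.64 ± 0.25 higher in C3H (adjusted p = 0.148), and without the high AJ PBS replicate 2 this was 0.88 (adjusted p = 0.0313). At an unadjusted p under 0.05 the counts were 1, 1, 1 and 1 in these 4 comparisons in turn. Among allergen arrays 0 of 5 differed between the strains at 24 h, where 7.13% of all genes did.

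Markers of several cell types were called with allergen, those of some types mostly higher and those of others mostly lower. Of 18 neutrophil markers 13 were measured, and 10, 5, 7 and 0 of them were higher with allergen in AJ at 6 h, AJ at 24 h, C3H at 6 h and C3H at 24 h. Their mean level ran from 5.99 to 6.39 in AJ PBS and 7.57 to 8.13 in AJ allergen arrays at 6 h, and from 5.92 to 6.16 and 6.73 to 7.34 at 24 h. In C3H it ran from 6.10 to 6.77 in PBS and 6.74 to 8.02 in allergen arrays at 6 h, and from 5.96 to 6.19 and 6.18 to 6.43 at 24 h. None of the 13 was at 0 on any array, and Elane, which encodes neutrophil elastase, was below an intensity of 16 in every group. S100a8, an abundant neutrophil calcium-binding protein, differed by 3.97, 2.92, 1.73 and 0.32 in the same order, the last not passing, and the third no longer passing without C3H allergen replicates 1 and 2. In C3H at 24 h, where 0 of the 13 passed by limma, 3 had an unadjusted p under 0.05. The part of neutrophils in the members' differences was not tested in any of the 4 comparisons.

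The 2 C3H allergen arrays at 6 h with the highest Saa3, Lcn2 and Orm1 readings, replicates 1 and 2, also had the highest neutrophil marker levels of their group, 7.89 and 8.02 against 6.74 to 7.27. Their macrophage and monocyte marker levels were the highest of the group too, 8.22 and 8.37 against 7.88 to 7.97. Without these 2 arrays, 1 of the 13 neutrophil markers and 4 of the 12 macrophage and monocyte markers were higher in that comparison. Of the 5 members 3 remained called, namely Saa3, Ptx3 and Lcn2. In AJ PBS at 6 h, replicate 2, the highest for Saa3 and Lcn2, likewise had the highest neutrophil marker level, 6.39 against 5.99 to 6.15 on the other 4 arrays. Replicate 4, also high for Saa3, had 6.11. In AJ PBS at 24 h, replicate 1, the highest for Saa3 and Lcn2, had 6.07, within the range of its group. Among AJ allergen arrays at 6 h, replicate 4 had the highest neutrophil marker level, 8.13, and the lowest Lcn2 reading, 2793. Among those at 24 h, replicate 5 had the highest neutrophil marker level, 7.34, and the lowest Saa3 reading, 1609. Replicate 1 of that group, the highest for Saa3 and Lcn2, had a level of 6.92.

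Macrophage and monocyte markers were higher in all 4 comparisons, 7, 9, 6 and 5 of the 12 measured of 13 listed. Their mean level lay from 7.20 to 7.48 in AJ PBS and 7.94 to 8.32 in AJ allergen arrays at 6 h, and from 7.25 to 7.40 and 8.19 to 8.29 at 24 h. In C3H it lay from 7.06 to 7.67 and 7.88 to 8.37 at 6 h, and from 7.33 to 7.55 and 7.74 to 7.96 at 24 h. All 4 allergen ranges lay above their PBS ranges, as those of Saa3 and Lcn2 did. The part of these cells in the members' differences was not tested. Hepatocyte markers, a check for liver tissue, were called higher for 1, 0, 0 and 0 and lower for 0, 3, 0 and 0 of the 11 measured. Their mean level in AJ at 24 h lay from 5.76 to 6.55 in PBS and 5.21 to 5.77 in allergen arrays. Adipocyte markers, of interest because fat also makes Hp and Saa3, were called lower for 0, 2, 0 and 0 of the 8 measured and higher for none, with mean levels in AJ at 24 h of 7.54 to 8.87 in PBS and 5.95 to 7.90 in allergen arrays. Heart and skeletal muscle markers were called lower for 0, 3, 0 and 0 of the 10 measured and higher for none, with a list median of -1.32 in AJ at 24 h, where their mean level lay from 8.33 to 9.04 in PBS and 7.11 to 7.89 in allergen arrays. With the adipocyte and muscle levels as covariates, the differences in AJ at 24 h were 3.67 for Saa3, 2.49 for Lcn2, 1.56 for Orm1, -0.11 for Ptx3 and -0.13 for Hp, and the calls of these 5 there did not change. The part of liver tissue was not tested. No marker of the neutrophil, macrophage, airway, hepatocyte, adipocyte and muscle lists was at 0 on any array.

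Airway secretory epithelium, a source of Lcn2, had 12 of 12 listed markers measured, of which 5, 5, 4 and 5 were called higher and 2, 3, 1 and 0 lower. Their mean level lay from 8.65 to 9.08 in AJ PBS and 9.75 to 10.03 in AJ allergen arrays at 6 h, and from 8.75 to 9.12 and 9.92 to 10.03 at 24 h. In C3H it lay from 8.49 to 9.0 and 9.17 to 9.95 at 6 h, and from 8.51 to 8.90 and 9.50 to 10.02 at 24 h, so the mean levels of PBS and allergen arrays did not overlap in any of the 4 comparisons. The median difference over the 12 markers was only 0.29, 0.15, 0.16 and 0.43, so the higher mean came largely from the few markers with large differences, named next. Clca1, a secreted product of goblet cells, differed by 6.64, 6.60, 4.85 and 6.30, and Pigr, which carries antibodies across epithelium, by 2.28, 2.36, 2.07 and 1.78, all passing. Agr2, which helps mucins fold, differed by 2.42, 2.76, 1.16 and 2.21, all passing, and the mucin Muc5ac by 2.98, 2.74, 0.85 and 1.16, of which the 0.85 in C3H at 6 h did not pass. Without C3H allergen replicates 1 and 2, 2 of the 12 were higher in C3H at 6 h, and Agr2 was no longer among them. The club cell gene Scgb1a1 was not called in any of the 4 comparisons. The part of secretory epithelium in the members' differences was not tested. Of the 10 alveolar epithelium markers measured, 3, 2, 2 and 1 were called lower in these 4 comparisons in turn and none higher. Of all genes 12%, 3.28%, 3.69% and 1.15% were lower there. The alveolar list medians were -0.19, -0.22, -0.24 and -0.12.

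**Figure D3:**
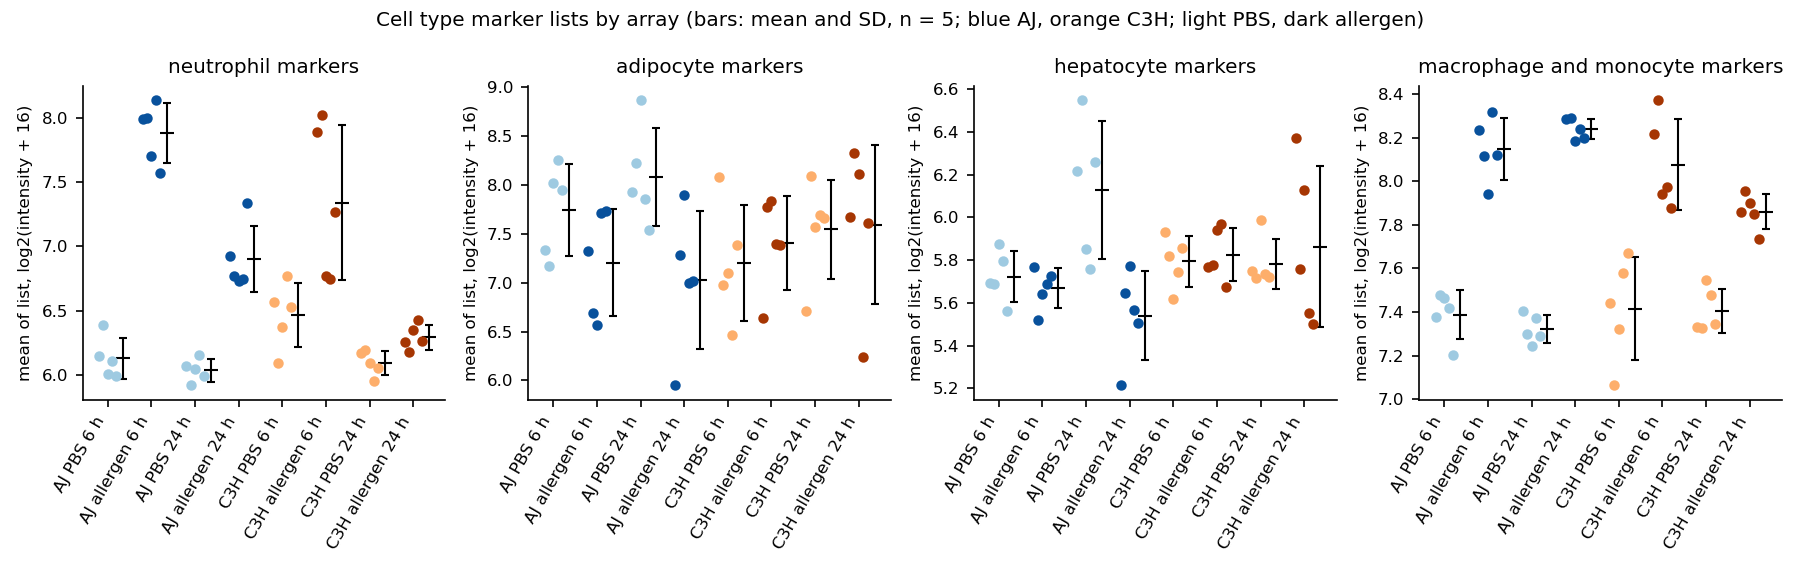
Mean level of each marker list, log2(intensity + 16), on every array (points) with group mean and SD (black), coloured as AJ blue and C3H orange, PBS light and allergen dark. Neutrophil levels are highest with allergen at 6 h and split the C3H allergen arrays at 6 h, where replicates 1 and 2 are at 7.89 and 8.02. Macrophage levels set the same 2 arrays apart, at 8.22 and 8.37, and stay raised at 24 h.

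Within groups, Saa3 and Lcn2 varied together from array to array. Over the deviations of the 40 arrays from their group means, Pearson's r was 0.71 (permutation within groups, p = 0.00015, adjusted p = 0.0015 over 10 pairs of members) and Spearman's rho was 0.64 (adjusted p = 0.0032). Without the 2 arrays farthest from the median Saa3 deviation, r was 0.57. Lcn2 and Orm1 gave r = 0.38 (permutation p = 0.00939, adjusted p = 0.0469) and rho = 0.43 (adjusted p = 0.0392), with r = 0.40 without the 2 farthest arrays. The other 8 pairs did not pass, from r = -0.34 for Ptx3 and Orm1 (adjusted p = 0.132) to r = 0.44 for Lcn2 and Hp (adjusted p = 0.0834). For Ptx3 and Lcn2 r was -0.03 (adjusted p = 0.831). The arrays of a group share their condition but may differ in tissue composition, and which of these the shared variation follows was not tested.

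**Figure D4:**
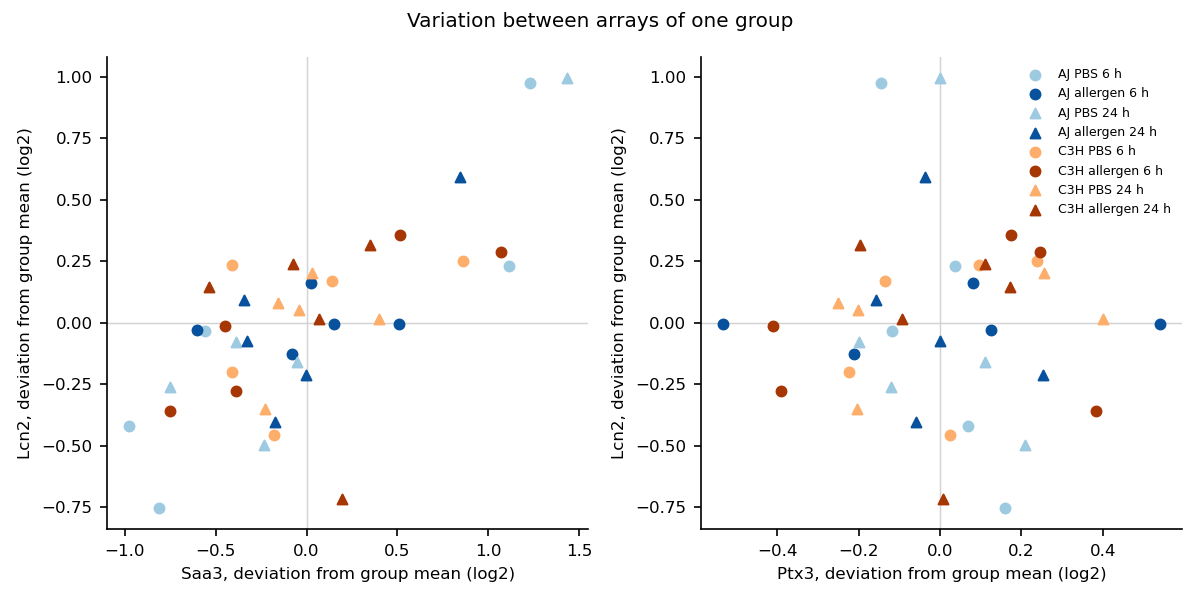
Deviation of each array from its group mean (log2), Lcn2 on the vertical axis against Saa3 (left) and Ptx3 (right), 40 arrays, circles at 6 h and triangles at 24 h, coloured by strain and treatment. The Saa3 points rise together with Lcn2 (r = 0.71), with AJ PBS arrays at both ends, and the Ptx3 points are scattered (r = -0.03).

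Other acute phase proteins behaved unevenly. Of 28 listed, 23 were measured; 7, 8, 10 and 3 were higher in AJ at 6 h, AJ at 24 h, C3H at 6 h and C3H at 24 h and none was lower, with list medians of 0.16, 0.13, 0.35 and 0.20. Without C3H allergen replicates 1 and 2, the 10 at 6 h in C3H became 3, and Saa1, Saa2, Cfb, Cp, Hpx, Mt1 and Mt2 no longer passed. Serpina3n, a serine protease inhibitor of the antichymotrypsin family, was higher in all 4 comparisons, by 0.77 ± 0.19, 1.96 ± 0.19, 1.17 ± 0.19 and 1.17 ± 0.19. Cfb, complement factor B, rose by 2.16 ± 0.21 in AJ at 24 h, 0.85 ± 0.21 in C3H at 6 h and 1.54 ± 0.21 in C3H at 24 h, and its 0.57 in AJ at 6 h did not pass. Steap4, a metalloreductase, rose by 1.81 and 1.75 in AJ at the 2 times and by 1.56 in C3H at 6 h. Cp, the copper carrier ceruloplasmin, rose by 1.09 in AJ at 24 h, and by 0.59 and 0.71 in C3H. The metallothioneins Mt1 and Mt2 rose in AJ at both times, by 1.45 and 1.03 for Mt1 and 1.48 and 1.42 for Mt2, and in C3H at 6 h, by 0.79 and 0.97.

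The forms of serum amyloid A made mainly in the liver were measured beside Saa3. Saa1 differed by 0.78, 1.16, 0.67 and 0.47, the last not passing, and Saa2 by 0.37, 0.61, 0.45 and -0.12, of which those in AJ at 24 h and C3H at 6 h passed. Hpx, the haem carrier hemopexin, rose at 6 h, by 0.53 in AJ and 0.59 in C3H, and its -0.20 and 0.19 at 24 h did not pass. Of the classical liver products Crp, Apcs and Fgb, 0 were called in any allergen comparison. Crp, C-reactive protein, differed by -0.03, 0.00, 0.13 and 0.05, and Apcs, serum amyloid P, by 0.16, 0.03, 0.00 and 0.23. Fgb, a fibrinogen chain, differed by -0.03 to 0.00. Fgb read below the added number in every group, where differences are understated. Its values therefore do not show whether it responded. Of the negative acute phase proteins, whose liver output drops in inflammation, 5 of 6 were measured. Of them 1 fell in AJ at 6 h, where 12% of all genes were lower, 3 fell in AJ at 24 h, where 3.28% were lower, and none fell in C3H. Of these 5 genes 4 (Alb, Apoa1, Ttr and Ahsg) are also among the hepatocyte markers counted above. Alb, albumin, differed by -1.43 ± 0.38 in AJ at 24 h and by 0.46 in C3H at 24 h, the latter not passing. In the AJ PBS group at 24 h, its level had an SD of 1.29 over the 5 arrays.

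**Figure D5:**
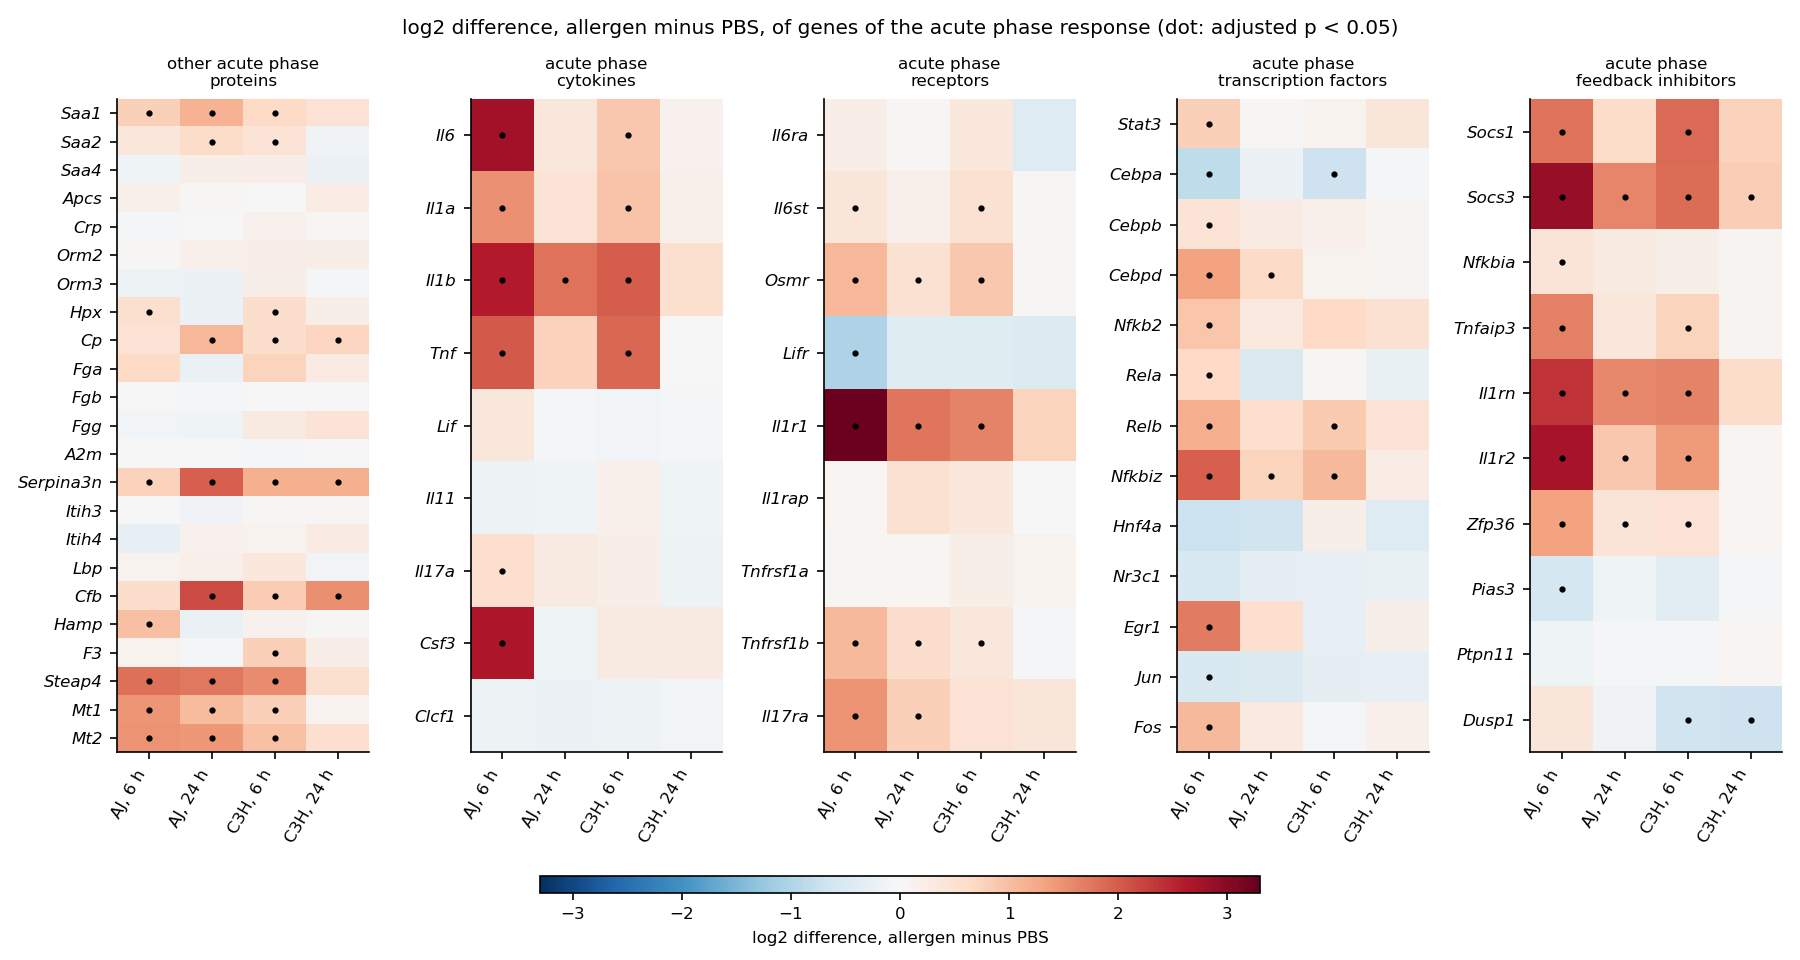
Difference between allergen and PBS (log2, colour scale from blue, lower, to red, higher) for genes of the acute phase response in 5 lists (rows), in 4 comparisons (columns), with a dot where adjusted p is under 0.05. Dots are most frequent in AJ at 6 h among transcription factors and feedback inhibitors and fewest in C3H at 24 h, while Serpina3n, Cfb and Cp keep theirs there.

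Of 11 acute phase cytokines listed, 9 were measured, and 6, 1, 4 and 0 were higher in AJ at 6 h, AJ at 24 h, C3H at 6 h and C3H at 24 h, the 0 by limma with 1 at an unadjusted p under 0.05. Il6, the main inducer of the liver response, rose by 2.78 ± 0.21 in AJ and 0.88 ± 0.21 in C3H at 6 h, and its 0.39 and 0.14 at 24 h did not pass. Its effect at 6 h was smaller in C3H, by -1.90 ± 0.30 (adjusted p = 0.000178), as the effect on Ptx3 was. Csf3, the granulocyte growth factor, rose by 2.66 ± 0.35 in AJ at 6 h, and its 0.30 in C3H did not pass (difference of the effects -2.36 ± 0.50, adjusted p = 0.00512). Il1b rose by 2.60 ± 0.24 and 1.79 ± 0.24 in AJ at 6 h and 24 h and by 2.01 ± 0.24 in C3H at 6 h. Tnf rose by 2.04 in AJ and 1.90 in C3H at 6 h.

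Of 9 receptors measured, 5, 4, 4 and 0 were higher and 1, 0, 0 and 0 lower. Il1r1, the signalling receptor for interleukin 1, rose by 3.24, 1.76 and 1.63 in AJ at 6 h, AJ at 24 h and C3H at 6 h, and Osmr, the oncostatin M receptor, by 1.10, 0.52 and 0.89; the Il1r1 call in C3H was lost without allergen replicates 1 and 2. Il6st, the shared signalling chain gp130, rose at 6 h by 0.40 in AJ and 0.51 in C3H, while Il6ra was not called. Of 13 transcription factors measured, 9, 2, 2 and 0 were higher and 2, 0, 1 and 0 lower. Nfkbiz, the nuclear NF-kB partner needed for many secondary response genes, rose by 1.96, 0.73 and 1.08 in the first 3 comparisons. Cebpd rose in AJ, by 1.34 and 0.63, its 0.12 and 0.08 in C3H did not pass, and its effect at 6 h was smaller in C3H by -1.21 ± 0.27 (adjusted p = 0.00747). Stat3 rose by 0.78 in AJ at 6 h.

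Of 10 feedback inhibitors measured, 7, 4, 6 and 1 were higher and 1, 0, 1 and 1 lower. Socs3, which stops STAT3 signalling by the interleukin 6 family, rose in all 4 comparisons, by 2.88 ± 0.17, 1.62 ± 0.17, 1.86 ± 0.17 and 0.81 ± 0.17, and its effect at 6 h was smaller in C3H by -1.02 ± 0.24 (adjusted p = 0.0134). Il1r2, the decoy receptor for interleukin 1, rose by 2.71, 0.89 and 1.41 in the first 3 comparisons. The C3H comparison at 24 h had the fewest calls in these lists and also over all genes, of which 3.24% were called there in either direction, against 19%, 7.84% and 7.62% in AJ at 6 h, AJ at 24 h and C3H at 6 h.

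Receptors and partners of the 5 proteins were called higher for 8, 6, 6 and 3 and lower for 2, 0, 1 and 0 of the 18 measured. Cd163, the macrophage receptor for the haptoglobin-haemoglobin complex, rose by 2.65 ± 0.20 in AJ at 24 h, 0.97 ± 0.20 in C3H at 6 h and 0.83 ± 0.20 in C3H at 24 h, while Hp did not change past the threshold. The Cd163 effect at 24 h was smaller in C3H by -1.82 ± 0.29 (adjusted p = 0.000858). Hmox1, which breaks down the haem delivered with that complex, was lower in AJ at 6 h, by -1.68 ± 0.25, and higher at 24 h, by 0.99 ± 0.25. Tnfaip6, which binds Ptx3 in the hyaluronan matrix, rose by 1.51, 0.73 and 1.67 in the first 3 comparisons, and Selp, the leukocyte adhesion receptor P-selectin that Ptx3 binds, by 2.45, 1.27, 1.90 and 0.77 in all 4. Fpr2, a receptor for serum amyloid A on phagocytes, rose by 1.21, 0.67 and 0.65 in the first 3, the last of which was lost without C3H allergen replicates 1 and 2, and Tlr2 by 1.29 and 0.63 at 6 h in AJ and C3H. Slc22a17, the cell surface receptor described for lipocalin 2, was not called in any allergen comparison.

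The genes most like each member were found among 1483 genes spanning at least 1 log2 unit between group means, by Pearson's r over the 40 arrays, given without a p because the arrays share groups. For Saa3 they were Serpina3n (r = 0.94), Ms4a6d (0.93), Lcn2 (0.93) and Chil1 (0.91), and within groups these correlations were 0.68, 0.41, 0.71 and 0.57. For Lcn2 they were Saa3 (0.93), Ccl9 (0.92), Chil1 (0.92) and F10 (0.90). For Ptx3 they were Zc3h12a (0.94), which encodes an RNase that degrades cytokine messages, Rhou (0.93), Acod1 (0.93), the enzyme that makes itaconate, and Rnf19b (0.92), with 0.07, 0.35, 0.48 and 0.46 within groups. Since these 4 genes were chosen for their likeness to Ptx3 on the same arrays, their differences are a description of that choice. At 6 h they were, for Zc3h12a 2.63 and 1.37, for Rhou 2.14 and 0.99, for Acod1 3.92 and 1.77, and for Rnf19b 2.70 and 1.49 in AJ and C3H. For Orm1 they were Saa3 (0.76), Tfec (0.76), Ccl9 (0.74) and Lcn2 (0.74). For Hp the closest were Gpc3 (0.62), Apba3 (0.57), Sntb2 (0.55) and Bcam (0.55); Hp itself spans less than the 1 log2 unit required of these genes.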

How the data were processed

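Each of 40 arrays had a deposited linear intensity for each of 22690 probe sets, 64 of them controls. Their trimmed means were all from 150.036 to 150.046, a scaling done by the authors, with software not given in the sources used here. No detection calls were used. Symbols came from the platform annotation, and gene tests used the probe sets that have exactly 1. Each gene was represented by the probe set with the highest mean log2 level, and no filter on low values was set; 13.6% of the values tested lay below the added 16. The number of arrays limits the precision.

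A linear model of 8 group means was fitted to log2(intensity + 16) by lmFit and eBayes (limma 3.58.1, R 4.3.3), with residual degrees of freedom of 32 and prior ones of 4.62. It gave 16 two-sided contrasts, each adjusted by Benjamini-Hochberg over 12393 genes, with a threshold of 0.05: allergen against PBS, strain and time differences of that effect, and strain and time differences within each treatment. Intervals are 95% and unadjusted. Correlations within groups used 100000 permutations of arrays within groups. Data of 12393 genes were also simulated for the AJ comparison at 24 h. A small random part of the genes was given known changes and the others were left unchanged. The model found 44.8% of the genes changed by 0.5 log2 units, 89.6% of those changed by 1 and 100% of those changed by 2. For the strain difference of that effect it found 10.4%, 73.1% and 98.5%, so most strain differences of 0.5 would be missed. These shares are averages over the genes changed and need not hold for a given member or for more changed genes.

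The 5 genes and all gene lists were chosen with earlier results of these data known. All 5 were named in every comparison; from each list, genes fixed by name and up to 4 genes with the largest differences among those called were named, and for each member the 4 genes with the highest r. Replicate numbers were not used to pair arrays in the main model. Same-numbered arrays of different groups correlated by -0.26 to 0.41 in their deviations, with means of -0.02 to 0.07 for the 5 numbers. Differently numbered arrays were not compared, so whether a number marks a batch was not tested. Alternatives changed the normalization, the added number, the choice of probe sets and genes, array weights, covariates, the arrays fitted and the replicate block, and left out each array in turn. Leaving out C3H allergen replicates 1 and 2 at 6 h together was chosen after seeing the data.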

Additional observations from a re-analysis of the deposited data

Results flagged for a closer look

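Among 40 sets of 5 arrays (5 genes in 8 groups), 5 held an array that stood apart from its group, where chance alone gives about 1 in 20. Saa3 on AJ allergen replicate 1 at 24 h was at 11.86 on the log2(intensity + 16) scale, against 10.67 to 11.01 on the others. Lcn2 on AJ PBS replicate 1 at 24 h was at 10.40, against 8.91 to 9.33. Lcn2 on C3H allergen replicate 4 at 24 h was at 10.51, against 11.25 to 11.54. Hp on AJ allergen replicate 1 at 6 h was at 10.84, against 11.09 to 11.15. Orm1 on C3H PBS replicate 1 at 24 h was at 4.19, against 5.43 to 5.91.

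The allergen effect on Ptx3 differed between groups by test: C3H minus AJ at 6 h it was -1.48 (adjusted p = 9.19e-05 by limma), 24 h minus 6 h in AJ -2.68 (adjusted p = 4.39e-10), and 24 h minus 6 h in C3H -1.03 (adjusted p = 0.0202).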

How the results depend on the processing

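Of 969 values of the 80 member differences under settings other than leaving out 1 array, 949 kept their direction and side of the threshold, 3 no longer passed, 17 newly passed and 0 reversed; with 1 array left out these were 994, 1, 5 and 0 of 1000. The members called changed as follows. With quantile normalization they were 1 for C3H minus AJ in PBS at 24 h, 1 for 24 h minus 6 h in PBS in C3H, 3 for C3H minus AJ in allergen at 24 h and 3 for 24 h minus 6 h in allergen in C3H. With 64 added they were 1 for C3H minus AJ in allergen at 24 h and 2 for 24 h minus 6 h in allergen in AJ. Without the dimmest 25% of genes, which removes Ptx3, 0 members were called in its 3 interactions and in C3H minus AJ at 6 h and 24 h minus 6 h in either strain among allergen arrays, 2 and 3 in the allergen effects at 6 h in AJ and C3H, and 1 in C3H minus AJ in allergen at 24 h. With array weights they were 3 for the allergen effect in C3H at 24 h, 1 for C3H minus AJ in PBS at 24 h and 1 for 24 h minus 6 h in PBS in C3H. With the groups compared fitted alone they were 0 for the change of the effect with time in C3H, 1 for 24 h minus 6 h in PBS in C3H, 1 for C3H minus AJ in allergen at 24 h and 2 for 24 h minus 6 h in allergen in AJ. Leaving out C3H allergen replicates 1 and 2 at 6 h gave 3 for the allergen effect in C3H at 6 h and 0 for the change with time in C3H. The replicate block gave 1 in 24 h minus 6 h in PBS in AJ (Hp, adjusted p = 0.0475) and left the number of members called in the other 15 comparisons as it was. With 1 array left out, counts ranged from 0 to 1 for C3H minus AJ in PBS at 6 h, 24 h minus 6 h in PBS in C3H and the change with time in C3H, from 1 to 2 for the change with time in AJ, and from 2 to 3 for the allergen effect in C3H at 24 h. Within groups, Saa3 and Orm1 passed with 64 added (r = 0.38, adjusted p = 0.0449) and Lcn2 and Hp with median centring (r = 0.47, adjusted p = 0.0318). Over all genes, counts called ranged from 2046 to 3551 around 2358 in AJ at 6 h, 549 to 1313 around 971 in AJ at 24 h, 370 to 1292 around 944 in C3H at 6 h and 161 to 714 around 402 in C3H at 24 h, and for the strain and time differences of the effect from 112 to 478 around 267, 6 to 200 around 57, 552 to 1118 around 697 and 23 to 168 around 109. For C3H minus AJ in PBS at 6 h and 24 h they were 176 to 975 around 552 and 188 to 483 around 239. With allergen these were 759 to 1758 around 1154 and 470 to 1506 around 884. For 24 h minus 6 h in AJ and C3H they were 290 to 1149 around 666 and 191 to 843 around 398 in PBS. With allergen these were 1977 to 3547 around 2373 and 1703 to 4137 around 2581. The counts of members above are to be read beside these totals. Ptx3 and Orm1 lie near the added 16 in PBS, which limits what their fold sizes say.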
